A study of Homo sapiens with 23 samples.

Results

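Day 3 of cardiac differentiation was set against the days on either side of it, to find genes whose RNA was transiently high or low at that time. The cells were H1-hESC, an established human embryonic stem cell line with wild-type genotype in the labels, differentiated toward cardiomyocytes. The libraries were those of day 3, labelled cardiac mesoderm (3 libraries), and of the flanking days, day 1, labelled mesendoderm (3), and day 5, labelled cardiac progenitors (3), out of 23 in a time course of 8 days. All share 1 cell line and 1 protocol: stem cells were kept in mTeSR1 medium and the derived cells in RPMI with insulin, and the labels name no cell sorting. Ribosomal RNA-depleted total RNA was sequenced, so transcripts without a poly(A) tail were measured too.

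A gene was a member when it passed 3 tests with the same sign: day 3 against the mean of days 1 and 5 as 1 contrast, day 3 against day 1, and day 3 against day 5. Each was edgeR's quasi-likelihood test at a Benjamini-Hochberg adjusted p under 0.05. Of 57477 genes, 22245 had enough counts to be tested. By this rule 582 genes (2.62% of those tested) were higher at day 3 than on both flanking days and 551 (2.48%) were lower. The contrast alone called 2218 genes higher (9.97%) and 2398 lower (10.8%). Day 3 was called higher than day 1 in 18.2% of genes and lower in 19%. It was called higher than day 5 in 6.33% and lower in 10.3%. Genes with few counts on every day were not tested, so the members are those that could be measured.

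In the vertebrate embryo, mesoderm forms when epiblast cells pass through the primitive streak under Nodal, Wnt, BMP and FGF signals. The basic helix-loop-helix factors MESP1 and MESP2 are switched on for a short time as cells leave the streak: in mice, Mesp1 marks cells that found the heart, and Mesp2 sets the borders of somites. Cardiac progenitor factors such as NKX2-5 and TBX5 come on later, and the sarcomere, the contractile unit of muscle, is built after that.

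Total counts were between 9252641 and 20975832 in the day 3 libraries, between 13144827 and 21233225 at day 1 and between 4330334 and 13679686 at day 5. Levels are given as CPM, counts scaled to library size with TMM factors. Libraries of the same day correlated at 0.973 to 0.989 at day 3, 0.981 to 0.995 at day 1 and 0.907 to 0.967 at day 5, on log2(CPM + 1). The library with the highest total of each day (day 3 replicate 1, day 1 replicate 2 and day 5 replicate 2) deviated from its day mean together with those of the other days, with correlations of 0.604 to 0.714, and its part in the results was not tested beyond the values without it. Nothing in the labels says that replicates came from separate cultures, so p-values measure a spread between libraries that may be technical. That spread was estimated within days over all 23 libraries of the 8 days, not over the 9 libraries of these days alone.

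The label of day 3 was checked against mesoderm markers first. PDGFRA, a receptor of early mesoderm, had 424, 217 and 162 CPM at day 3, against 2.94, 3.66 and 2.94 at day 1 and 383, 814 and 263 at day 5. HAND1, a factor of cardiac and extraembryonic mesoderm, had 201, 263 and 168 CPM at day 3, against 0.0773, 0 and 0.0864 at day 1 and 134, 175 and 118 at day 5. Both were near 0 at day 1 and overlapped between days 3 and 5. KDR, a receptor of cardiac and vascular mesoderm, had 205, 141 and 181 CPM at day 3, against 281, 426 and 228 at day 1 and 343, 331 and 62.1 at day 5, and passed none of the 3 tests, with a contrast of -0.65 (adjusted p = 0.166).

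The streak markers TBXT and MIXL1 were lower at day 3 than at day 1, and the progenitor factors NKX2-5, TBX5 and MEF2C were near 0. TBXT, the factor brachyury, had 8.57, 13.7 and 26.5 CPM at day 3, against 529, 418 and 589 at day 1 and 1.68, 1.05 and 2.98 at day 5. MIXL1, a homeobox factor of the streak, had 81.3, 102 and 171 CPM at day 3, against 2183, 1624 and 2232 at day 1 and 4.09, 2.93 and 8.69 at day 5. For both, all day 3 libraries lay below those of day 1 and above those of day 5. NKX2-5 had 0.222, 0.311 and 0.603 CPM at day 3, against 0, 0 and 0.173 at day 1 and 46.9, 33.9 and 173 at day 5. TBX5 had 0.533, 0.156 and 0 CPM at day 3, against 0.0773, 0 and 0 at day 1 and 52.1, 67.1 and 75.7 at day 5. The progenitor factor MEF2C had 0.755, 0.545 and 0.201 CPM at day 3, against 0.541, 0.293 and 0.432 at day 1 and 44.2, 114 and 39.98 at day 5. No day 3 library reached any day 5 library for these 3 factors. ISL1, another progenitor factor, differed from them, with 35.6, 25.5 and 19.6 CPM at day 3, against 0.696, 0.244 and 0.0864 at day 1 and 51.2, 38.9 and 25.8 at day 5, so days 3 and 5 overlapped.

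Markers of other cell types were present in part. FOXA2, a factor of endoderm and node, had 41.05, 63.6 and 70.3 CPM at day 3, against 46.7, 34.9 and 42.3 at day 1 and 62.96, 18.8 and 97.3 at day 5, with overlapping ranges. HNF4A, a liver and endoderm factor, had 3.11, 3.97 and 3.42 CPM at day 3, against 0, 0.0976 and 0.0864 at day 1 and 46.4, 14.5 and 41.5 at day 5. CDH5, which joins endothelial cells, had 1.42, 1.09 and 1.21 CPM at day 3, against 0, 0.0976 and 0.0864 at day 1 and 10.6, 3.97 and 3.72 at day 5, and so lay between the flanking days, like HNF4A. SOX10, a neural crest factor, had 0 counts in all 9 libraries, and SOX1, an early neural factor, had 3 counts in all at day 3. In bulk libraries fewer cells of a type and less RNA per cell cannot be told apart, and the part of such cells in the results was not tested.

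The median contrast on the log2 scale was 2.41 over the 582 higher genes and -1.39 over the 551 lower genes, beside 0.02 over all genes tested. The rule itself fixes these signs. Of the higher genes 482 (2.17% of genes tested) were at least 2-fold up in both steps and 220 at least 4-fold, and of the lower genes 326 (1.47%) and 84. Every day 3 library lay above all 6 flanking libraries in 514 of the 582 higher genes, as in 834 of all genes (3.75%). Every day 3 library lay below them in 390 of the 551 lower genes, as in 671 of all genes (3.02%). At the edge of the rule, TNNT1 (largest adjusted p of the 3 tests 0.0499) was just inside for higher genes and RPL3L (0.0501) just outside. For lower genes KLHL18 was just inside and TPD52L1 (0.0504) just outside.

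**Figure D1:**
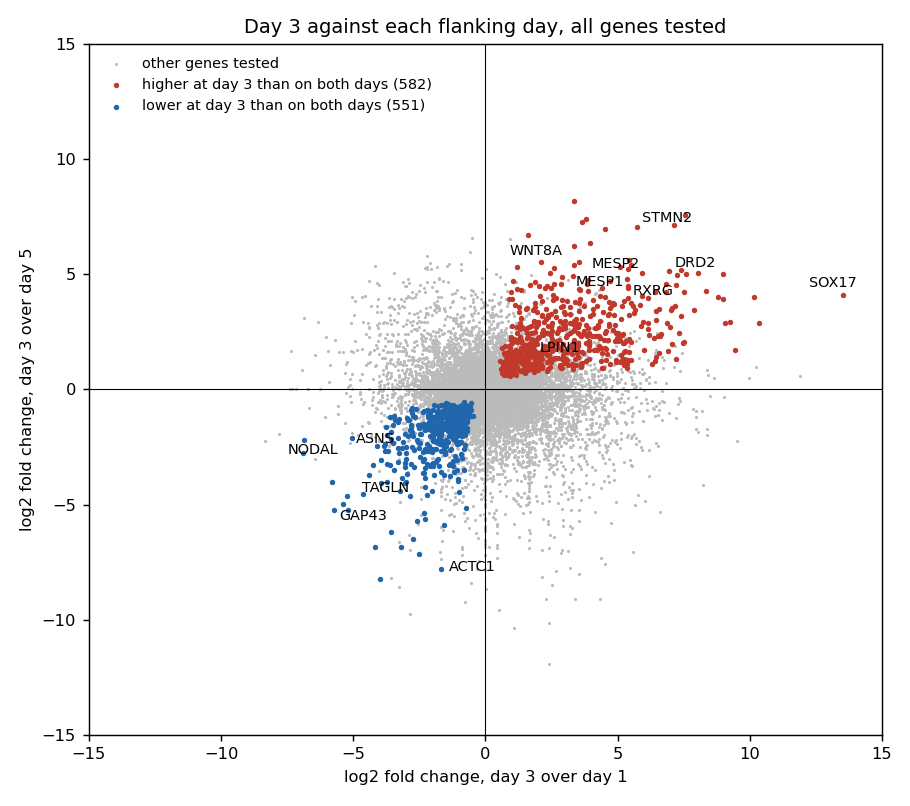
Log2 fold change of day 3 over day 1 (x axis) against day 3 over day 5 (y axis) for each gene tested, with the 582 genes higher at day 3 than on both days in red and the 551 lower in blue. The red genes fill the upper right corner and the blue genes the lower left, with SOX17 and STMN2 far out among the red and NODAL, GAP43 and ACTC1 among the blue.

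The number of members depended on single libraries. Without day 5 replicate 2 the rule gave 2103 higher genes, 544 of them among the 582, and 1080 lower genes, 497 of them among the 551. Without day 3 replicate 1 it gave 453 and 281, and the contrast gave 1313 higher and 1053 lower. Lower genes numbered 359 when day 1 replicate 1 was dropped and 367 when day 1 replicate 3 or day 3 replicate 3 was. Fitting only the 9 libraries of these days gave 342 and 169. Scaling by library totals alone gave 668 higher and 351 lower, with 65.5% of the contrast's calls higher in place of 48.1%, and put the median of all genes at 0.17. Of the 120 members chosen for description by size and list membership, 82 met the rule under every alternative that tested them, out of 19. For the others the number of alternatives under which they met it is given, with each library whose removal alone ended the call and the largest adjusted p of the 3 tests without it.

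MESP1, MESP2 and the genes beside them rose together. MESP1 had 26.6, 50.5 and 95.4 CPM at day 3, against 1.47, 0.683 and 2.07 at day 1 and 3.48, 1.05 and 3.72 at day 5. Every day 3 library lay above the others, with replicate 3 highest. MESP2 had 21.9, 43.9 and 80.6 CPM at day 3, against 0.541, 0.683 and 1.21 at day 1 and 1.56, 0.488 and 3.23 at day 5, again with no overlap and with replicate 3 highest. The contrast was 4.95 (SE 0.43, adjusted p = 3.18e-09) for MESP1. For MESP2 it was 5.50 (SE 0.37, adjusted p = 2.91e-11). They are close relatives, and how reads shared between them were counted is not given in the sources used here, so their separate levels are less certain.

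On GRCh38 these genes lie in a row on chromosome 15, with no other tested gene between them. They are WDR93 (89690811 to 89743638, plus strand), MESP1 (89749875 to 89751249, minus), MESP2 (89760591 to 89778754, plus) and ANPEP (89784895 to 89815401, minus). All 4 met the rule under all 19 alternatives. ANPEP, the cell-surface enzyme aminopeptidase N, had 69.1, 104 and 121 CPM at day 3, against 0.464, 0.537 and 0.605 at day 1 and 6.13, 3.28 and 6.95 at day 5. WDR93, a WD-repeat protein, had 5.91, 6.15 and 9.95 CPM at day 3, against 0.464, 0.244 and 0.0864 at day 1 and 0.721, 0.697 and 0.248 at day 5. Their day 3 libraries too lay above all others.

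Upstream sequences are shown for MESP2 and ANPEP because these neighbours rose together, for RXRG as one of the largest rises, and for LPIN1 as the other marker gene of day 3. Each is the 250 bases before a RefSeq start (GRCh38.p14), 5′ to 3′ on the gene's strand. Capitals mark matches on either strand to 5 short motifs. These were AGGTGT as a T-box motif, then CAGCTG as an E-box, then CTTTGA for the TCF and LEF factors, then AGATAA for GATA factors and finally TGGGAA for the Notch effector RBPJ. MESP2 is chr15:89776082-89776331 (plus strand) and ANPEP is chr15:89806629-89806878 (minus, the nearer to MESP2 of its 2 listed starts). RXRG is chr1:165445127-165445376 (minus) and LPIN1 is chr2:11746382-11746631 (plus, 1 of its 3 listed starts).
MESP2: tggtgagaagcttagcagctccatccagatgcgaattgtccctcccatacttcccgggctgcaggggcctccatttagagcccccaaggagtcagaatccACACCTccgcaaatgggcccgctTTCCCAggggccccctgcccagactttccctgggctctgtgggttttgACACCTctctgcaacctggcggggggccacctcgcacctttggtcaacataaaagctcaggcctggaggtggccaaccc
ANPEP: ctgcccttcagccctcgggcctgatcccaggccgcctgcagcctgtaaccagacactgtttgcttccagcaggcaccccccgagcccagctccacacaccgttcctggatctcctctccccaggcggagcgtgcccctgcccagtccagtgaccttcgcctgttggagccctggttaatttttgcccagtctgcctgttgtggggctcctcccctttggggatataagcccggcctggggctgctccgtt
RXRG: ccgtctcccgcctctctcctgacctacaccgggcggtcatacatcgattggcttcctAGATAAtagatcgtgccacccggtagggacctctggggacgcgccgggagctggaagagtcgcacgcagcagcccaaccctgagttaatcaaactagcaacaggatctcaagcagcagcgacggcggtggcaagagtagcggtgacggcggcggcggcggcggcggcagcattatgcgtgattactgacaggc
LPIN1: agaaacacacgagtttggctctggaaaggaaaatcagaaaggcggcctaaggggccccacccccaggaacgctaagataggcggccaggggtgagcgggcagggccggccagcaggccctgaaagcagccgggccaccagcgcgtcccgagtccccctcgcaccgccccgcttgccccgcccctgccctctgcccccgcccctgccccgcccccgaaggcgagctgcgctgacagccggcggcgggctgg

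The MESP2 stretch held 3 matches. The T-box motif occurred in reverse, beginning 150 and 79 bases before the start, and the RBPJ motif in reverse 127 bases before it. RXRG held the GATA motif 193 bases before its start. Neither ANPEP nor this start of LPIN1 held any of the 5 motifs. A match is a description, not a binding site. The RefSeq table matched 366 of the 582 higher genes, with 578 promoters of 250 bases before to 50 after the start, and 13967 of the genes tested, with 19972 promoters. The GATA motif was in 10.4% of promoters of higher genes, against 7.02% of those of all genes tested. The TCF and LEF motif was in 11.6% against 9.76%, the E-box in 20.4% against 17.9%, the T-box motif in 9.17% against 9.93% and the RBPJ motif in 18.0% against 22%. In promoters of the lower genes the GATA motif was in 6.70%, the TCF and LEF motif in 12.1% and the E-box in 18.5%. The T-box motif was in 11.5% of them and the RBPJ motif in 20.7%. Over all promoters listed, of tested genes or not, the shares in the same order were 10.3%, 12.9%, 17.9%, 11.4% and 24.0%. None of these shares was tested.

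Among protein-coding members with a mean of at least 20 CPM at day 3 and no overlap with a flanking library, the 15 largest rises by the smaller of both steps took in transcription factors, membrane proteins and genes best known from neurons. All 15 met the rule under all 19 alternatives. STMN2, a microtubule regulator of growing axons, had 95.1, 45.9 and 80.3 CPM at day 3, against 0.927, 2.15 and 0.864 at day 1 and 0.481, 0.418 and 0.993 at day 5. DRD2, the dopamine D2 receptor, had 18.3, 32.8 and 27.2 CPM at day 3, against 0.386, 0.146 and 0.0864 at day 1 and 0.601, 0.627 and 1.24 at day 5. MOBP, a myelin protein, had 30.9, 16.9 and 26.8 CPM at day 3, against 0.0773, 0.0976 and 0 at day 1 and 1.56, 1.32 and 0.745 at day 5. These genes of the nervous system were at or below 2.15 CPM in every flanking library.

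Among transcription factors, RXRG, the gamma form of the retinoid X receptor, had 18.7, 32.3 and 36.2 CPM at day 3, against 0.85, 0.683 and 0.518 at day 1 and 1.32, 1.32 and 1.49 at day 5. SOX17, a factor of endoderm and of blood-forming endothelium, had 77.5, 115 and 171 CPM at day 3, against 0, 0 and 0 at day 1 and 8.53, 3.14 and 10.7 at day 5. It had 0 counts at day 1, so day 3 was at least 1819-fold higher, set against a floor of 3 counts over the day 1 libraries. FOXI2, a forkhead factor, had 16.6, 19.9 and 27.3 CPM at day 3, against 0.618, 0.244 and 0.173 at day 1 and 2.4, 0.558 and 0.993 at day 5. All 3 factors were highest in day 3 replicate 3.

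Among membrane and signalling genes, KCNA1, a Shaker-type potassium channel, had 47.6, 29.1 and 27.3 CPM at day 3, against 0, 0.0488 and 0.173 at day 1 and 2.28, 2.3 and 1.74 at day 5. RASGRP3, which switches on Ras proteins, had 147, 62.5 and 42.3 CPM at day 3, against 0.309, 0.146 and 0 at day 1 and 5.05, 8.5 and 1.74 at day 5. CST1, a protease inhibitor of the cystatin family, had 18.3, 32.99 and 57.4 CPM at day 3, against 2.63, 2.0 and 3.02 at day 1 and 2.88, 0.418 and 1.49 at day 5. KCNA1 and RASGRP3 were highest in day 3 replicate 1, and CST1 in replicate 3. PCDH19, an adhesion protein of the protocadherin family, was even across day 3, with 39.2, 40.2 and 37.97 CPM at day 3, against 0.927, 1.27 and 0.778 at day 1 and 2.76, 1.6 and 4.72 at day 5. HHIPL2, a relative of the Hedgehog inhibitor HHIP, averaged 34.1 ± 7.52 CPM at day 3, against 0.818 ± 0.116 at day 1 and 2.08 ± 1.68 at day 5 (SD, n = 3 each). SAMD3 averaged 62.2 ± 15.3 CPM at day 3, against 4.18 ± 1.45 at day 1 and 3.35 ± 1.12 at day 5 (SD, n = 3 each).

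**Figure D2:**
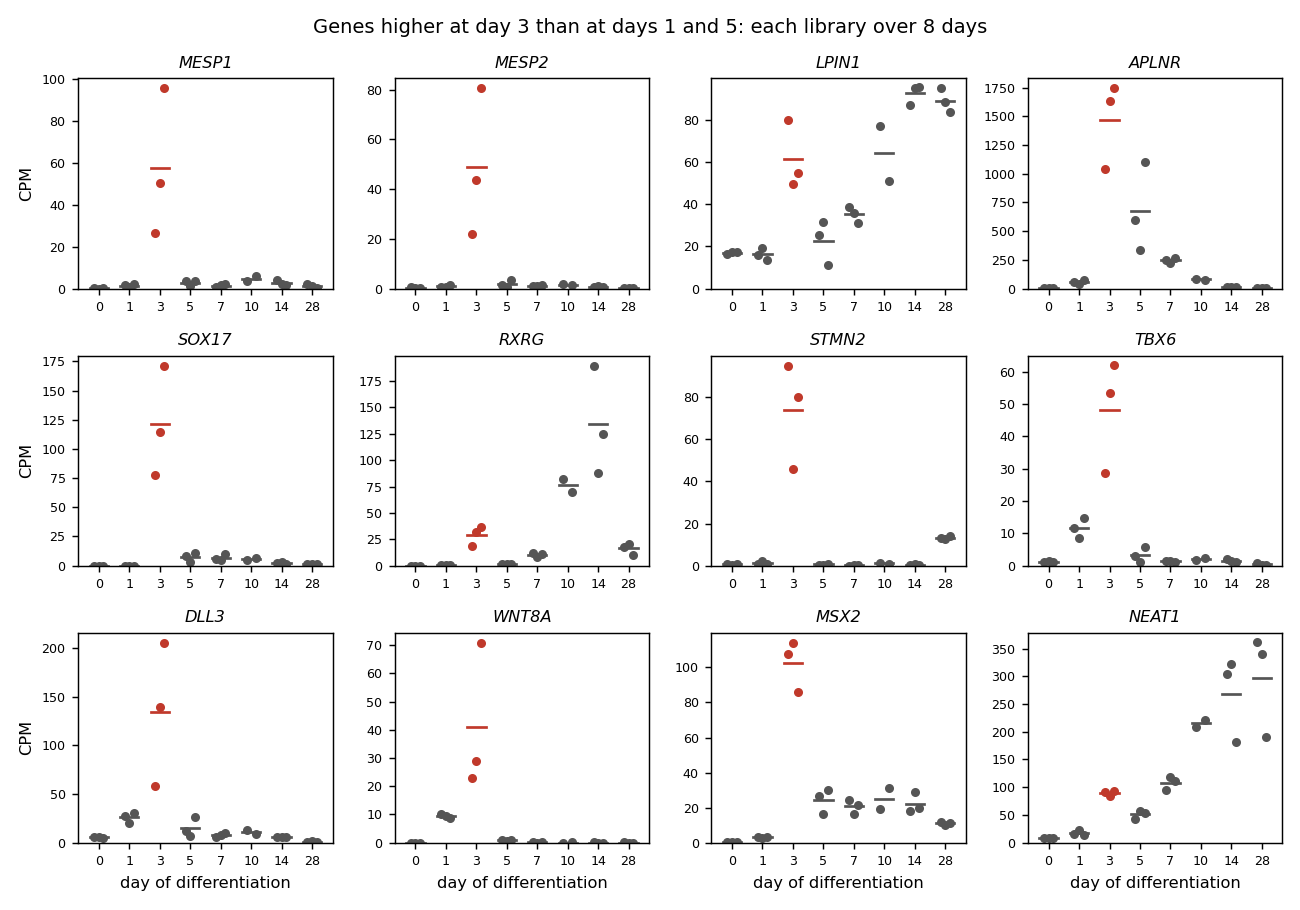
CPM in each library (points) and the mean of each day (bars) over 8 days, evenly spaced on the x axis, for 12 genes higher at day 3 than on both flanking days, with day 3 in red. MESP1, MESP2 and SOX17 are high at day 3 alone, STMN2 comes back to a lower level at day 28, and LPIN1, RXRG and NEAT1 pass their day 3 mean again later.

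LPIN1, which encodes a phosphatidate phosphatase of triglyceride synthesis that also acts with nuclear receptors, rose by less than MESP1. It had 80.4, 49.6 and 54.95 CPM at day 3, against 15.9, 19.3 and 13.7 at day 1 and 25.2, 31.4 and 11.4 at day 5. The lowest day 3 library was above the highest flanking library, day 5 replicate 2. The contrast was 1.67 (SE 0.22, adjusted p = 4.46e-06), with 1.92 over day 1 and 1.42 over day 5 on the log2 scale. Under the 19 alternatives the contrast ran from 1.46 to 1.91, and the rule was met each time. Day means from day 0 to day 28 were, in time order, 17.02, 16.3, 61.6, 22.7, 35.4, 64.4, 92.8 and 89.4 CPM, and day 28 stood above day 7 by 1.34 on the log2 scale (adjusted p = 0.000277). The day 3 level was thus a first maximum, and the means of days 10, 14 and 28 were higher.

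The other lipins did not meet the rule. LPIN2 had 51.1, 40.4 and 57.3 CPM at day 3, against 39.9, 41.6 and 35.5 at day 1 and 69.4, 60.8 and 24.8 at day 5, a contrast of 0.14 (adjusted p = 0.692). LPIN3 had 5.86, 8.48 and 10.05 CPM at day 3, against 10.5, 9.13 and 11.1 at day 1 and 6.61, 4.32 and 14.4 at day 5, a contrast of -0.16 (adjusted p = 0.711). The ranges overlapped for both. Of 19 genes tested for lipins and phosphatidate synthesis, 5 were called higher and 1 lower by the contrast, and LPIN1 alone met the rule. The contrast called 9.97% of all genes tested higher and 10.8% lower, and 2.62% met the rule upward.

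Among the higher genes, those with day means most like LPIN1's (Pearson r of log2 CPM over 8 days) were SLC46A3 (0.991), CFLAR (0.986), CCDC68 (0.981), TMEM144 (0.974) and DISC1 (0.973). Those most like MESP1's were CNGA4 (0.980), ZNF804B (0.980), ENSG00000197585 (0.974), WDR93 (0.970) and ENSG00000250643 (0.966). These values describe shape over 8 days that share libraries and depth. They are the highest among genes already chosen for a rise at day 3, so high values are favoured. Some of these genes were weak: day 3 means were 2.05 CPM for CNGA4, 2.22 for ZNF804B, 0.843 for ENSG00000250643 and 1.52 for CCDC68. CFLAR met the rule under 17 of 19 alternatives and missed it in fits of the 9 libraries. CCDC68 met it under 14 of 19 and missed it without day 3 replicate 1 or day 5 replicate 3 (0.0503 to 0.212). ENSG00000250643 met it under 10 of 13 and missed it without day 5 replicate 1 or 2 (0.0517 to 0.0545).

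Among cardiac mesoderm genes several met the rule, all of them upward. Of 20 tested, 16 were called higher by the contrast and 0 lower, 9 met the rule upward and 0 downward, and the median contrast was 3.18. The median log2 change was 5.38 for day 3 over day 1 and 0.997 for day 3 over day 5. Over all genes tested the contrast called 9.97% higher and 10.8% lower, and 2.62% met the rule upward and 2.48% downward. The counts of every list below are to be read beside these shares. MSX1, a homeobox target of BMP, had 194, 222 and 195 CPM at day 3, against 17.9, 8.3 and 20.7 at day 1 and 32.2, 39.03 and 32.8 at day 5. MSX2, its relative, had 108, 114 and 85.8 CPM at day 3, against 3.4, 2.78 and 3.37 at day 1 and 26.6, 16.6 and 29.8 at day 5. FOXC1, a forkhead factor of paraxial and second heart field mesoderm, had 58.8, 71.8 and 140.04 CPM at day 3, against 2.86, 2.73 and 3.98 at day 1 and 31.2, 23.2 and 30.5 at day 5. All 3 genes had day 3 libraries above every other. LGR5, an R-spondin receptor, had 106, 50.8 and 31.9 CPM at day 3, against 0.541, 1.07 and 0.864 at day 1 and 9.01, 19.1 and 7.7 at day 5, also without overlap and with replicate 1 highest.

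The other 3 members of the list overlapped with day 5. APLNR, the apelin receptor of early cardiac mesoderm, had 1039.7, 1633 and 1744 CPM at day 3, against 55.6, 41.8 and 71.8 at day 1 and 595, 338 and 1101 at day 5. It met the rule under 15 of 19 alternatives and missed it without day 3 replicate 2 or 3 or day 5 replicate 1 (0.0643 to 0.111). FOXC2, a relative of FOXC1, had 2.98, 8.64 and 10.4 CPM at day 3, against 0, 0 and 0 at day 1 and 2.76, 1.32 and 2.98 at day 5, and missed the rule without day 3 replicate 3 (0.0521, met under 17 of 19). With 0 counts at day 1, its day 3 level was at least 110-fold higher against the same floor. CXCR4, a chemokine receptor, had 35.9, 52.99 and 112 CPM at day 3, against 1.78, 1.46 and 1.47 at day 1 and 42.1, 19.1 and 21.6 at day 5, and missed the rule without day 3 replicate 3 (0.146, met under 17 of 19). APLN, the gene of the apelin ligand, was picked after its values were seen. It had 0, 0.0778 and 0.301 CPM at day 3, against 6.18, 4.0 and 7.0 at day 1 and 2.76, 0.976 and 1.24 at day 5, and was lower than on both days under all 19 alternatives.

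EOMES, a T-box factor of the streak, had 87.5, 116 and 245 CPM at day 3, against 633, 531 and 664 at day 1 and 9.73, 3.76 and 7.7 at day 5, so it lay between the flanking days and did not meet the rule. Nor did ISL1, PDGFRA or HAND1.

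In the presomitic and paraxial mesoderm list of 15 tested, 9 were called higher by the contrast and 6 not called, 7 met the rule upward and 0 downward, with a median contrast of 1.90, and the list shares MESP2, FOXC1 and FOXC2 with the cardiac list. TBX6, a T-box factor of paraxial mesoderm, had 28.8, 53.4 and 61.98 CPM at day 3, against 11.7, 8.39 and 14.6 at day 1 and 3.0, 1.12 and 5.71 at day 5. RIPPLY2, a repressor at somite borders, had 6.09, 7.0 and 11.1 CPM at day 3, against 1.0, 1.32 and 1.47 at day 1 and 1.2, 0.627 and 0.248 at day 5. Both lay above every flanking library. The Notch ligand DLL1 had 14.7, 31.05 and 61.98 CPM at day 3, against 3.17, 2.29 and 3.8 at day 1 and 9.61, 3.97 and 7.2 at day 5. Its relative DLL3 had 58.4, 139 and 205 CPM at day 3, against 27.7, 19.9 and 30.9 at day 1 and 12.1, 6.69 and 26.3 at day 5. In all 4 genes day 3 replicate 3 was the highest library of the 9. The summed level of the list ran from 224 to 740 CPM at day 3, 85.3 to 134 CPM at day 1 and 61.2 to 133 CPM at day 5.

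Of 19 streak genes tested, 2 met the rule upward (LHX1 and TBX6) and 1 downward (NODAL). LHX1, a factor of the organizer and of lateral mesoderm, had 50.2, 66.8 and 137 CPM at day 3, against 6.41, 5.37 and 7.6 at day 1 and 10.3, 4.95 and 5.21 at day 5. None of 7 node genes met it, and their summed level ran from 68.6 to 134 CPM at day 3, 541 to 765 CPM at day 1 and 40.8 to 182 CPM at day 5. In the pluripotency list of 21 genes tested, OTX2, a factor of epiblast and head, met the rule upward, with 98.8, 86.5 and 195 CPM at day 3, against 65.8, 85.4 and 53.8 at day 1 and 40.1, 39.03 and 22.3 at day 5. Day 3 lay above every flanking library, but OTX2 met the rule under 14 of 19 alternatives and missed it without day 3 replicate 3 or day 1 replicate 1 or 3 (0.0747 to 0.263).

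Wnt genes included 6 members upward and 0 downward among 32 tested, and 14 were called higher and 3 lower by the contrast. Over all genes tested 2.62% met the rule upward, and the contrast called 9.97% higher and 10.8% lower. WNT8A, a ligand of the streak, had 22.8, 28.8 and 70.9 CPM at day 3, against 10.3, 9.32 and 8.73 at day 1 and 0.961, 0.767 and 0.993 at day 5. WNT4, another ligand, had 10.6, 16.7 and 29.4 CPM at day 3, against 1.0, 0.976 and 0.346 at day 1 and 1.2, 1.05 and 1.24 at day 5. LEF1, a nuclear effector, had 214, 162 and 129 CPM at day 3, against 59.3, 63.5 and 55.7 at day 1 and 75.1, 76.9 and 43.7 at day 5. All 3 were above every flanking library and met the rule under all 19 alternatives, as did LGR5. WNT5A, a ligand of cell movement and polarity, had 225, 166 and 171 CPM at day 3, against 4.33, 5.47 and 4.84 at day 1 and 86.7, 126 and 59.3 at day 5, and met it under 18 of 19. The receptor FZD7 averaged 534 ± 155 CPM at day 3, against 206 ± 30.9 at day 1 and 297 ± 74.1 at day 5 (SD, n = 3 each), and missed the rule without day 3 replicate 3 or day 5 replicate 3 (0.0775 to 0.182, met under 15 of 19). Of 11 secreted Wnt antagonists none met the rule, although 5 were called higher and 2 lower by the contrast.

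BMP genes gave 4 of 25 upward (MSX1, MSX2, BMP6 and GREM1) and 0 downward, with 13 called higher by the contrast. Over all genes tested these shares were 2.62% upward and 2.48% downward by the rule, and 9.97% higher by the contrast. The median log2 change of the list was 2.62 for day 3 over day 1 and -0.35 for day 3 over day 5. Its summed level ran from 1863 to 2218 CPM at day 3, 591 to 716 CPM at day 1 and 2827 to 3500 CPM at day 5. As a list, BMP genes were thus above day 1 but not above day 5. The antagonist GREM1 had 16.8, 6.85 and 3.42 CPM at day 3, against 0.155, 0.293 and 0.173 at day 1 and 2.64, 2.16 and 1.49 at day 5, above every flanking library. The ligand BMP6 averaged 14.2 ± 2.12 CPM at day 3, against 1.42 ± 0.128 at day 1 and 7.68 ± 3.37 at day 5 (SD, n = 3 each), and missed the rule without day 3 replicate 1 or 3 or day 5 replicate 2 or 3 (0.0559 to 0.118, met under 12 of 19).

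Genes of the Nodal and activin pathway moved both ways among 14 tested. The ligand NODAL had 3.55, 4.51 and 3.11 CPM at day 3, against 487, 339 and 494 at day 1 and 15.7, 15.1 and 21.4 at day 5. GDF3, a ligand of the same family, had 0.0888, 0.233 and 0.603 CPM at day 3, against 34.8, 26.1 and 34.8 at day 1 and 1.2, 1.05 and 4.22 at day 5. Day 3 was below every flanking library for both ligands. LEFTY2, an inhibitor of Nodal, had 8.57, 28.3 and 47.8 CPM at day 3, against 5.49, 3.42 and 5.01 at day 1 and 0.841, 0.697 and 0.497 at day 5. INHBA, a subunit of activin A, had 21.01, 10.3 and 5.32 CPM at day 3, against 0.0773, 0.0488 and 0.0864 at day 1 and 0.481, 4.18 and 1.49 at day 5. LEFTY2 and INHBA were above every flanking library.

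FGF ligands, receptors and ERK feedback genes gave 4 of 26 upward (FGF3, SPRY2, SPRED2 and ETV5) and 1 downward (ETV1). Over all genes tested the shares were 2.62% and 2.48%. The ligand FGF3 was weak, with 1.38, 1.63 and 3.82 CPM at day 3, against 0.309, 0.0976 and 0.173 at day 1 and 0.12, 0 and 0 at day 5, and met the rule under all 19 alternatives. The feedback inhibitor SPRY2 missed it without day 3 replicate 1 or day 1 replicate 2 (0.0517 to 0.0717, met under 13 of 19), and SPRED2, another, without day 3 replicate 3 (0.0633, met under 15 of 19). The ERK target ETV5 missed it without day 3 replicate 3 or day 1 replicate 2 (0.0997 to 0.165, met under 15 of 19), and ETV1 without day 3 replicate 2 or 3, day 1 replicate 1 or day 5 replicate 2 (0.0522 to 0.703, met under 9 of 19). Beyond DLL1 and DLL3 no gene of the Notch list of 21 met the rule.

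Of 16 retinoic acid genes, 2 met the rule upward. ALDH1A2, the main enzyme making retinoic acid in mesoderm, averaged 8.91 ± 4.16 CPM at day 3, against 0.932 ± 0.217 at day 1 and 3.09 ± 1.19 at day 5 (SD, n = 3 each), and missed it without day 3 replicate 1 (0.0915, met under 17 of 19). CRABP2, which carries retinoic acid in the cell, averaged 1046 ± 218 CPM at day 3, against 238 ± 58.6 at day 1 and 548 ± 284 at day 5 (SD, n = 3 each), and missed it without day 3 replicate 2 or day 5 replicate 1 (0.0628 to 0.0925, met under 15 of 19). HHIP, which binds and blocks Hedgehog ligands, was the 1 member of 12 Hedgehog genes. It had 12.4, 8.09 and 6.93 CPM at day 3, against 0.386, 0.488 and 0.259 at day 1 and 1.68, 2.37 and 0.248 at day 5, above every flanking library.

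Extracellular matrix genes gave 4 of 25 upward and 0 downward, beside 2.62% and 2.48% of all genes tested. FBN2, a fibrillin of embryonic microfibrils, had 1527, 1057 and 1044 CPM at day 3, against 96.5, 186 and 81.8 at day 1 and 472, 445 and 146 at day 5. LOX, which crosslinks collagen and elastin, had 8.8, 12.8 and 27.1 CPM at day 3, against 0.618, 0.683 and 0.346 at day 1 and 0.961, 1.6 and 0.993 at day 5. The proteoglycan BGN had 21.9, 44.05 and 35.4 CPM at day 3, against 2.01, 1.76 and 1.81 at day 1 and 5.29, 3.48 and 7.7 at day 5. These 3 lay above every flanking library and met the rule under all 19 alternatives. HAS2, which makes the hyaluronan of cardiac jelly, had 1212, 604 and 489 CPM at day 3, against 17.9, 28.9 and 16.9 at day 1 and 198, 565 and 177 at day 5, overlapping with day 5. It missed the rule without day 3 replicate 1 or day 5 replicate 1 or 3 (0.0862 to 0.189, met under 15 of 19).

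Axon guidance genes gave 4 of 36 upward and 0 downward, beside 2.62% and 2.48% of all genes tested. EPHA4, a receptor for ephrins, had 246, 143 and 130.1 CPM at day 3, against 68.6, 105 and 60.1 at day 1 and 87.95, 75.7 and 33.8 at day 5. PLXNA2, a receptor for semaphorins, had 250.4, 421 and 555 CPM at day 3, against 57.1, 46.9 and 57.4 at day 1 and 115, 136 and 138 at day 5. Both lay above every flanking library and met the rule under all 19 alternatives. NTN4, a netrin, averaged 21.001 ± 3.91 CPM at day 3, against 0.487 ± 0.165 at day 1 and 9.5 ± 3.53 at day 5 (SD, n = 3 each), and met it under 18 of 19. The netrin receptor DCC averaged 11.9 ± 6.36 CPM at day 3, against 0.323 ± 0.0818 at day 1 and 3.95 ± 2.54 at day 5 (SD, n = 3 each), and missed it without day 3 replicate 1 or day 5 replicate 1 or 3 (0.0602 to 0.178, met under 15 of 19).

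Of 22 genes of epithelial to mesenchymal transition, 2 met the rule upward. The mesenchymal cadherin CDH11 had 772, 459 and 375 CPM at day 3, against 29.1, 38.6 and 23.3 at day 1 and 86.9, 185 and 52.1 at day 5, above every flanking library. ITGA5, a subunit of the fibronectin receptor, averaged 333 ± 149.8 CPM at day 3, against 92.9 ± 17.4 at day 1 and 185 ± 73.1 at day 5 (SD, n = 3 each), and missed the rule without day 3 replicate 2 or 3 or day 5 replicate 1 (0.0558 to 0.286, met under 13 of 19).

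A few gene families, picked after their values were seen, had several members. The neuregulins, ligands of ErbB receptors, gave 3 of 4. NRG1 had 31.01, 30.7 and 46.1 CPM at day 3, against 3.79, 4.15 and 4.58 at day 1 and 9.85, 6.41 and 4.22 at day 5. NRG2 had 24.7, 33.7 and 35.4 CPM at day 3, against 0.309, 0.146 and 0.259 at day 1 and 10.2, 4.6 and 9.93 at day 5. NRG3 had 9.02, 9.96 and 18.5 CPM at day 3, against 5.64, 4.49 and 4.67 at day 1 and 1.32, 1.81 and 0.745 at day 5. All 3 lay above the flanking libraries and met the rule under all 19 alternatives. Of 6 Iroquois homeobox genes 3 were members. IRX1 had 9.64, 17.9 and 21.7 CPM at day 3, against 0.464, 0.439 and 0.346 at day 1 and 3.72, 1.81 and 7.7 at day 5, without overlap, and met the rule under all 19. IRX3 averaged 106 ± 40.8 CPM at day 3, against 1.35 ± 0.405 at day 1 and 49.1 ± 27.7 at day 5 (SD, n = 3 each), and missed it without day 3 replicate 3 or day 5 replicate 1 (0.0781 to 0.12, met under 16 of 19). IRX5 averaged 24.5 ± 12.8 CPM at day 3, against 0.66 ± 0.253 at day 1 and 9.89 ± 0.845 at day 5 (SD, n = 3 each), and missed it without day 3 replicate 3 (0.0563, met under 17 of 19). Of 6 Shaker-type potassium channel genes tested, KCNA1, KCNA2 and KCNA3 met the rule upward, and reads may be shared between these related genes. KCNA2 missed it without day 3 replicate 1 or day 5 replicate 1 (0.0625 to 0.116, met under 15 of 18). SOX17 was the 1 member of the 3 SOX F genes.

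Some members lay beside each other. Of the 582 higher genes 165 (28.4%) had another higher member as the nearest tested gene on either side, as did 5.01% of the 21987 tested genes with a position. Counting only neighbours that did not overlap in the annotation, these were 120 (20.6%) and 4.19%. For the 551 lower genes 69 (12.5%) had another lower member as such a neighbour, beside 4.88% of all, and 53 (9.62%) one that did not overlap, beside 3.85%. Besides the MESP row, IRX3, CRNDE and IRX5 lay in a run of 5 members between 54283304 and 54934485 on chromosome 16. GYPE, GYPB, HHIP-AS1 and HHIP lay in a run between 143870864 and 144745271 on chromosome 4. The strand setting of the counting is not given in the sources used here, so reads of overlapping pairs such as HHIP and HHIP-AS1 cannot be told apart. GYPE and GYPB are near-identical copies whose counts may be split. Positions are those of GENCODE v44 on GRCh38.

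Long non-coding RNAs were 92 of the higher genes (15.8%) and 22 of the lower (3.99%), beside 18.0% of genes tested. CRNDE, the long non-coding RNA next to IRX5, had 57.2, 44.05 and 54.2 CPM at day 3, against 2.78, 4.0 and 3.54 at day 1 and 15.1, 28.9 and 18.4 at day 5. LINC02600 had 32.03, 33.7 and 50.3 CPM at day 3, against 7.5, 6.78 and 10.2 at day 1 and 1.68, 0.697 and 4.22 at day 5. NEAT1, the scaffold of nuclear paraspeckles and the 1 member of 15 tested in a list of known long non-coding RNAs, had 91.9, 84.2 and 92.5 CPM at day 3, against 15.8, 23.6 and 13.3 at day 1 and 43.3, 57.2 and 54.1 at day 5. They were picked by a rule that asks for day 3 libraries above all flanking ones. NEAT1 missed the rule without day 3 replicate 1 or 3 or day 5 replicate 1 (0.0733 to 0.144, met under 14 of 19), and its day means from day 0 to day 28 were 8.57, 17.6, 89.5, 51.5, 108, 215, 269 and 297 CPM. The pseudogenes GTF2IP4 (higher, under 17 of 19 alternatives), TUBA5P (lower, under 19 of 19) and IPO5P1 (lower, under 16 of 19) share sequence with their parent genes, and their counts are uncertain. IPO5P1 missed the rule without day 1 replicate 3 (0.0833).

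**Figure D3:**
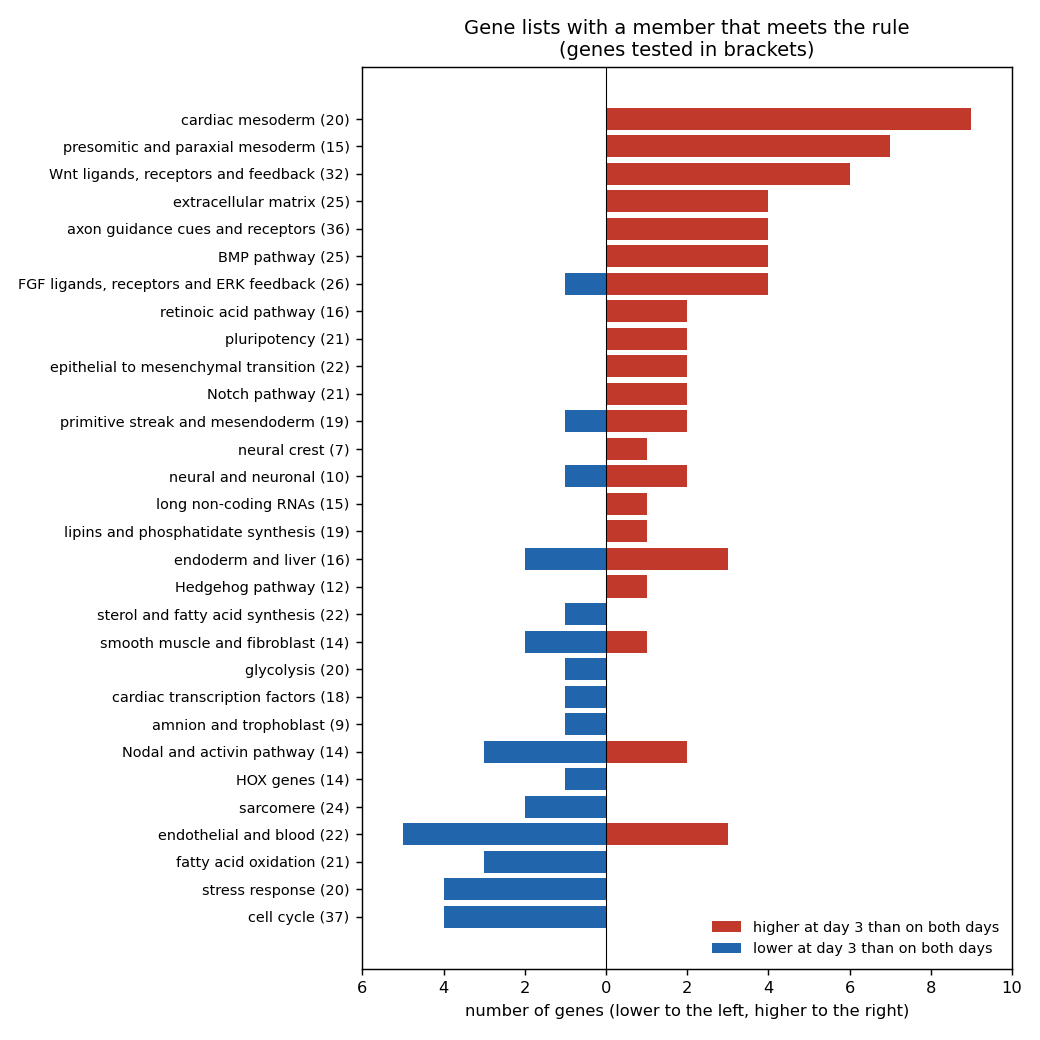
Number of genes in each gene list that met the rule, higher to the right in red and lower to the left in blue, for those of the 38 lists with at least 1 member (genes tested in brackets, lists drawn up after the values were seen left out). Cardiac mesoderm (9), presomitic and paraxial mesoderm (7) and Wnt (6) have the most higher members among these lists, and endothelial and blood (5), stress response (4) and cell cycle (4) the most lower members.

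Genes of several kinds dipped at day 3. GAP43, a growth cone protein, had 1.55, 1.17 and 1.0 CPM at day 3, against 73.1, 57.7 and 73.6 at day 1 and 42.8, 67.1 and 37.0002 at day 5, a contrast of -5.49 (SE 0.32, adjusted p = 3.75e-12). SMARCA2, an ATPase of SWI/SNF chromatin remodelling, had 8.4, 4.82 and 3.21 CPM at day 3, against 44.1, 60.6 and 30.7 at day 1 and 32.3, 67.8 and 13.4 at day 5. FERMT1, an integrin activator of epithelia, had 5.69, 7.55 and 6.03 CPM at day 3, against 88.6, 95.02 and 85.98 at day 1 and 37.8, 39.4 and 22.3 at day 5. These were among the 15 largest falls by the smaller of both steps, taken from protein-coding members with at least 20 CPM on each flanking day and no overlap with a flanking library. All 15 met the rule under all 19 alternatives. Among the others were CDH3, an epithelial cadherin (contrast -1.84), VLDLR, a lipoprotein receptor (-2.47), CLU, a secreted chaperone (-2.35), and PMEL, a fibril protein of pigment cells (-2.74). UGT3A2 (-1.98) and COLGALT2 (-2.24) were also there. VLDLR lies beside VLDLR-AS1, also a lower member, and reads of the pair cannot be told apart where they overlap.

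Some actin-binding and contractile genes met the rule downward. TAGLN, the actin-binding protein transgelin, had 10.4, 19.999 and 15.4 CPM at day 3, against 132, 94.1 and 152 at day 1 and 229, 145 and 395 at day 5. CAVIN1, which forms caveolae, had 2.71, 4.59 and 6.43 CPM at day 3, against 43.3, 29.6 and 48.3 at day 1 and 61.6, 35.8 and 97.1 at day 5. ACTC1, the cardiac actin, had 6.93, 12.2 and 10.7 CPM at day 3, against 35.8, 21.3 and 38.5 at day 1 and 1889.6, 1068 and 3689 at day 5. Day 3 was the lowest in every library for these 3 genes. In a list of 25 actin cytoskeleton genes drawn up after the values were seen, 17 were called lower by the contrast and 0 higher, and 10 met the rule downward, with a median contrast of -1.06. ACTA1, the skeletal muscle actin, had 0.444, 1.4 and 1.61 CPM at day 3, against 8.97, 7.66 and 9.68 at day 1 and 9.01, 6.48 and 19.1 at day 5. ACTN4, an actin crosslinker, had 109.7, 167 and 175 CPM at day 3, against 377, 292 and 409 at day 1 and 405, 260.2 and 649 at day 5. CSRP2, a LIM protein of smooth muscle, had 78.7, 76.96 and 63.6 CPM at day 3, against 198, 182 and 176 at day 1 and 778, 664 and 634 at day 5. These 3 and TAGLN met the rule under all 19 alternatives. SRF, the factor that drives many such genes, averaged 55.3 ± 12.9 CPM at day 3, against 103 ± 22.03 at day 1 and 139 ± 97.6 at day 5 (SD, n = 3 each), met the rule under 10 of 19 and missed it without day 3 replicate 1 or 3, day 1 replicate 1 or 3 or day 5 replicate 3 (0.0862 to 0.182).

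Muscle lists as a whole differed between the steps. Of 24 sarcomere genes 2 met the rule, ACTC1 and TPM1, both downward, and the median log2 change was 1.20 for day 3 over day 1 and -4.67 for day 3 over day 5. TPM1, a tropomyosin, had 105, 72.1 and 72.03 CPM at day 3, against 149, 136 and 131 at day 1 and 2999, 2993 and 2772 at day 5, and missed the rule without day 3 replicate 2 (0.054, met under 16 of 19). Of 18 cardiac transcription factors 5 were called higher and 3 lower by the contrast, the median log2 change over day 1 was 2.94, and SRF was the 1 member. Of 14 smooth muscle and fibroblast genes TAGLN and WT1 were lower and PDGFRB higher. PDGFRB, a receptor of mesenchyme, had 228, 299 and 163 CPM at day 3, against 8.27, 6.1 and 7.95 at day 1 and 97.8, 67.8 and 119 at day 5, and met the rule under 18 of 19. WT1, a factor of the epicardium, had 0.0444, 0.0778 and 0 CPM at day 3, against 0.773, 0.781 and 1.04 at day 1 and 9.01, 33.5 and 4.47 at day 5, and missed it without day 3 replicate 1 or day 1 replicate 3 (0.0521 to 0.0914, met under 16 of 19). The summed level of this list ran from 462 to 725 CPM at day 3, 481 to 713 CPM at day 1 and 3075 to 3603 CPM at day 5.

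Some genes of amino acid supply and of the stress response met the rule downward. ASNS, which makes asparagine and is a classical target of the stress factor ATF4, had 31.9, 32.4 and 31.7 CPM at day 3, against 388, 358 and 348 at day 1 and 199, 201 and 82.2 at day 5, a contrast of -2.92 (SE 0.28, adjusted p = 1.55e-08). PHGDH, the first enzyme of serine synthesis, had 124, 217 and 178 CPM at day 3, against 753, 551 and 799.6 at day 1 and 949.6, 684 and 1514 at day 5. STC2, a secreted stress-induced hormone, had 6.75, 9.65 and 22.1 CPM at day 3, against 83.9, 76.97 and 90.1 at day 1 and 51.4, 37.6 and 67.3 at day 5. Day 3 lay below every flanking library for all 3, and the ASNS values of day 3 were close to each other. The stress response list had 10 of 20 called lower by the contrast and 0 higher, with a median contrast of -0.66. Its median log2 change was -0.83 for day 3 over day 1 and -0.33 for day 3 over day 5. The summed level ran from 1035 to 1066 CPM at day 3, 2092 to 2594 CPM at day 1 and 1099 to 1240 CPM at day 5. As a list it thus fell from day 1 and stayed nearly as low at day 5. The members that met the rule downward were ATF5, TRIB3, ASNS and CHAC1 (4 of 20), all under 19 of 19 alternatives. CHAC1, a glutathione-degrading enzyme, had 1.95, 4.36 and 2.51 CPM at day 3, against 37.1, 24.9 and 41.8 at day 1 and 7.21, 8.78 and 16.4 at day 5. TRIB3, a pseudokinase induced by stress, had 3.51, 5.45 and 4.52 CPM at day 3, against 19.6, 14.4 and 22.5 at day 1 and 12.9, 8.5 and 20.1 at day 5, and the factor ATF5 had 1.07, 2.26 and 3.01 CPM at day 3, against 7.81, 6.69 and 9.85 at day 1 and 10.7, 7.18 and 11.2 at day 5. None of these overlapped with a flanking library.

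A list of 21 amino acid synthesis and uptake genes, drawn up after these values were seen, had 18 called lower by the contrast and 0 higher. Of these 10 met the rule downward, and the median contrast was -1.29. SLC7A5, the large neutral amino acid transporter, had 60.4, 114 and 79.1 CPM at day 3, against 876, 691 and 953 at day 1 and 204, 120.4 and 353 at day 5. SLC7A3, a cationic amino acid transporter, had 24.8, 41.1 and 53.04 CPM at day 3, against 118, 80.97 and 122 at day 1 and 98.3, 61.7 and 154 at day 5. Both met the rule under all 19 alternatives, although day 5 replicate 2 stood close to the day 3 libraries in each. SLC7A11, the cystine transporter, averaged 6.67 ± 3.55 CPM at day 3, against 20.9 ± 2.46 at day 1 and 18.98 ± 21.1 at day 5 (SD, n = 3 each), met it under 8 of 19, and missed it without day 3 replicate 2 or 3, day 1 replicate 1, 2 or 3 or day 5 replicate 2 (0.0517 to 0.756). Of 20 cytosolic aminoacyl-tRNA synthetases 9 were called lower and 0 higher by the contrast. The median log2 change of this list was -0.97 for day 3 over day 1 but -0.15 for day 3 over day 5. Only CARS1, MARS1 and YARS1 met the rule downward. CARS1 missed it without day 3 replicate 1 or 2 or day 5 replicate 1 (0.0659 to 0.118, met under 13 of 19), and YARS1 without day 3 replicate 1 or day 5 replicate 1 (0.0605 to 0.133, met under 14 of 19). MARS1 had 117, 171 and 141 CPM at day 3, against 639.7, 469.6 and 676 at day 1 and 312, 221 and 413 at day 5, and met it under 18 of 19.

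**Figure D4:**
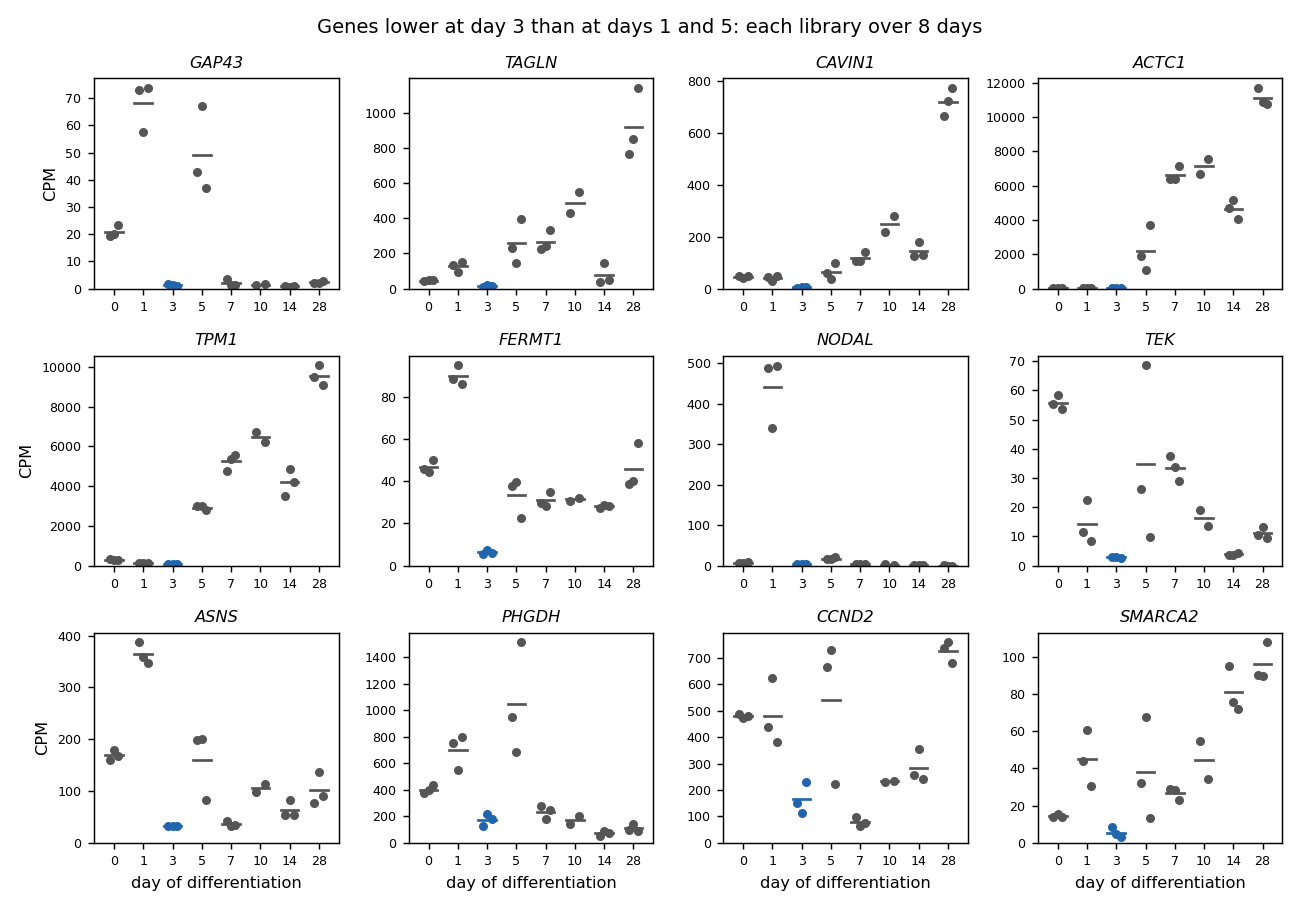
CPM in each library (points) and the mean of each day (bars) over 8 days, evenly spaced on the x axis, for 12 genes lower at day 3 than on both flanking days, with day 3 in blue. GAP43 and NODAL are low at day 3 and again after day 5, ASNS is low at day 3 and again at day 7, and TAGLN, CAVIN1 and SMARCA2 have their highest means at day 28.

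The endothelial and blood list moved both ways, with 3 of 22 upward (SOX17, RUNX1 and NFATC1) and 5 downward (TEK, TIE1, LMO2, ERG and HHEX). Over all genes tested 2.62% met the rule upward and 2.48% downward. The contrast called 5 of the list higher and 7 lower, beside 9.97% and 10.8% of all genes tested. The angiopoietin receptor TEK had 3.07, 2.88 and 2.51 CPM at day 3, against 11.7, 22.4 and 8.56 at day 1 and 26.2, 68.6 and 9.68 at day 5. LMO2, a cofactor of blood and vessel formation, had 1.15, 1.32 and 3.01 CPM at day 3, against 7.42, 4.64 and 7.17 at day 1 and 14.2, 4.67 and 6.7 at day 5. HHEX, a homeobox factor of endoderm and blood vessel precursors, had 5.6, 8.09 and 14.9 CPM at day 3, against 37.4, 26.3 and 33.2 at day 1 and 95.6, 56.6 and 78.7 at day 5. In these 3 genes day 3 was below every flanking library. NFATC1, a factor of endocardium, had 23.1, 46.9 and 53.2 CPM at day 3, against 5.02, 4.1 and 4.23 at day 1 and 11.7, 6.41 and 17.6 at day 5. RUNX1, a factor of blood formation, had 5.29, 5.84 and 8.24 CPM at day 3, against 1.55, 2.1 and 1.38 at day 1 and 0.721, 1.32 and 0.497 at day 5. Both were above every flanking library. The vascular receptor TIE1 missed the rule without day 5 replicate 1 (0.0669, met under 18 of 19), and the vascular factor ERG without day 5 replicate 1 (0.0598, met under 18 of 19). Summed levels of the list ran from 356 to 485 CPM at day 3, 346 to 526 CPM at day 1 and 304 to 602 CPM at day 5.

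Among 16 endoderm and liver genes SOX17, CXCR4 and PRDM1 were higher, and HHEX and AFP lower, where 2.62% and 2.48% of all genes tested met the rule. The contrast called 5 of the list higher and 2 lower, beside 9.97% and 10.8% of all genes tested. PRDM1, a repressor of endoderm and germ cells, averaged 20.3 ± 2.59 CPM at day 3, against 2.35 ± 0.468 at day 1 and 9.41 ± 5.45 at day 5 (SD, n = 3 each), and missed the rule without day 3 replicate 1 or day 5 replicate 3 (0.0512 to 0.0629, met under 15 of 19). AFP, the fetal serum protein, had 0.133, 0.0778 and 0 CPM at day 3, against 1.16, 0.976 and 0.432 at day 1 and 8.41, 21.3 and 2.23 at day 5, met the rule under 11 of 19 and missed it without day 3 replicate 1, 2 or 3, day 1 replicate 1 or 2 or day 5 replicate 2 (0.0581 to 0.0995). Summed levels of this list ran from 446 to 742 CPM at day 3, 432 to 521 CPM at day 1 and 431 to 987 CPM at day 5.

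The short neural, crest and amnion lists each held at least 1 member, where 2.62% of all genes tested met the rule upward and 2.48% downward. The contrast called 3 of 10 neural genes higher and 4 lower. It called 3 of 7 crest genes higher and 0 lower, and 1 of 9 amnion genes higher and 3 lower. Among 10 neural and neuronal genes tested, STMN2 and NTS were higher and GAP43 lower. NTS, the neurotensin precursor, had 107, 162 and 177 CPM at day 3, against 56.6, 85.2 and 51.3 at day 1 and 2.88, 4.32 and 3.97 at day 5, above every flanking library. The summed level of this list ran from 215 to 266 CPM at day 3, 147 to 166 CPM at day 1 and 60.8 to 87.7 CPM at day 5, and it includes the members themselves. Among 7 neural crest genes SOX9 was higher, with 11.1, 12.5 and 11.8 CPM at day 3, against 3.56, 4.34 and 5.96 at day 1 and 5.65, 3.9 and 3.48 at day 5, and met the rule under 18 of 19. Among 9 amnion and trophoblast genes KRT7, an epithelial keratin, was lower, with 0.0888, 0 and 0 CPM at day 3, against 1.08, 1.02 and 0.778 at day 1 and 6.61, 3.0 and 9.68 at day 5. Of 14 HOX genes tested HOXA13, a factor of posterior identity, was lower, with 0.0888, 0.233 and 0 CPM at day 3, against 0.155, 0.781 and 0.778 at day 1 and 0.841, 0.906 and 0.248 at day 5. It met the rule under 9 of 16 alternatives that tested it, and missed it without day 3 replicate 1 or 3, day 1 replicate 2 or 3 or day 5 replicate 1 or 2 (0.0635 to 0.121).

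Cell cycle genes gave 4 of 37 downward and 0 upward, beside 2.48% and 2.62% of all genes tested. CCND2, a G1 cyclin, had 151, 112 and 231 CPM at day 3, against 440.3, 624 and 381 at day 1 and 666, 732 and 221 at day 5, with day 5 replicate 3 inside the day 3 range, and met the rule under all 19 alternatives. CCNE1, the cyclin of S-phase entry, averaged 25.8 ± 4.62 CPM at day 3, against 82.6 ± 16.5 at day 1 and 41.4 ± 6.95 at day 5 (SD, n = 3 each), and missed it without day 3 replicate 1 or day 5 replicate 1 or 3 (0.0554 to 0.145, met under 13 of 19). MCM2, a subunit of the replication helicase, averaged 227 ± 61.1 CPM at day 3, against 482 ± 94.2 at day 1 and 427 ± 224 at day 5 (SD, n = 3 each), and missed it without day 3 replicate 1 or 3, day 1 replicate 1 or 3 or day 5 replicate 1 or 3 (0.0503 to 0.373, met under 7 of 19). MCM7, another subunit, averaged 299.6 ± 63.3 CPM at day 3, against 756 ± 162 at day 1 and 562 ± 247 at day 5 (SD, n = 3 each), and missed it without day 3 replicate 1 or 3 or day 5 replicate 1 or 3 (0.0559 to 0.203, met under 12 of 19).

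Metabolic lists differed mostly outside the rule. Over all genes tested 2.48% met it downward, and the contrast called 9.97% higher and 10.8% lower. Of 52 nuclear genes of oxidative phosphorylation 24 were called lower by the contrast, 1 higher and 0 met the rule, with median log2 changes of -0.80 over day 1 and -0.19 over day 5. Of 21 genes of fatty acid oxidation 3 met it downward under all 19 alternatives. ACSL1, which activates fatty acids, had 2.8, 2.49 and 1.81 CPM at day 3, against 11.6, 14.98 and 10.4 at day 1 and 33.4, 37.4 and 16.9 at day 5. FABP3, the heart fatty acid-binding protein, had 2.49, 1.09 and 3.42 CPM at day 3, against 10.7, 9.13 and 9.76 at day 1 and 8.77, 9.06 and 10.9 at day 5. The acylcarnitine carrier SLC25A20 had 4.58, 5.84 and 4.72 CPM at day 3, against 12.8, 8.69 and 12.5 at day 1 and 15.9, 12.2 and 17.9 at day 5. Day 3 lay below every flanking library for these 3 genes. HK1, the first enzyme of glycolysis in many cells, was the 1 member, lower, among 20 glycolysis genes, and missed the rule without day 3 replicate 1 (0.0886, met under 15 of 19). FDFT1, squalene synthase, was the 1 member, lower, among 22 genes of sterol and fatty acid synthesis. It met the rule under 6 of 19 and missed it without day 3 replicate 1 or 3, day 1 replicate 1 or 3 or day 5 replicate 1 or 3 (0.0573 to 0.168).

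None of 14 mitochondrial biogenesis regulators, 13 mitochondrially encoded messenger RNAs, 31 replication-dependent histone genes, 38 ribosomal protein genes or 12 hypoxia genes met the rule in either direction by edgeR's quasi-likelihood test. The contrast alone called 1 of the biogenesis regulators higher and 4 lower, 4 of the histone genes lower, and 0 genes of the other 3 lists. Only 2.62% of all genes tested met the rule upward and 2.48% downward, so short lists can lack members without differing from other genes.

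Over the whole course day 3 was the extreme for most members. The rule raises this share, because it asks that day 3 lie beyond days 1 and 5. The highest of the 8 day means was at day 3 for 416 of the 582 higher genes (71.5%), where 7.04% of all genes tested had theirs, and days 1 and 5 are barred by the rule. Day 28 held the highest mean of 73 higher genes and day 14 that of 41. The lowest mean was at day 3 for 311 of the 551 lower genes (56.4%), where 7.47% of all genes tested had theirs, with 94 at day 28 and 92 at day 14.

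**Figure D5:**
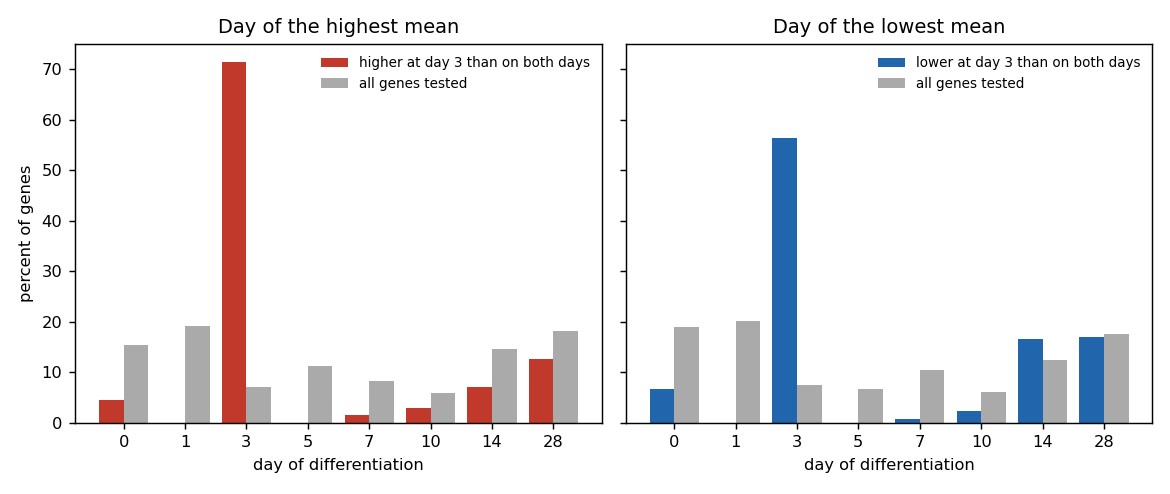
Percent of genes whose highest mean CPM over 8 days fell on each day for the genes higher at day 3 than on both flanking days (left, red), and whose lowest mean did for the lower genes (right, blue), beside all genes tested (grey). Day 3 holds 71.5% of the higher and 56.4% of the lower genes, shares that the rule raises, and the rule leaves none at days 1 and 5.

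Days 5 and 1 were compared directly. Of the 582 higher genes 172 were higher at day 5, 46 lower and 364 not called (62.5%), where 20.9% of all genes tested were called higher, 18.2% lower and 60.9% not called. Of the 551 lower genes 81 were higher at day 5, 63 lower and 407 not called (73.9%). Libraries that the rule did not use were compared as well. Between day 28 and day 7, 153 of the higher genes rose and 153 fell (26.3% each), beside 25.0% and 23.6% of all genes tested. Of the lower genes 133 rose (24.1%) and 206 fell (37.4%) between these days. Between day 7 and day 0, 231 of the higher genes rose (39.7%) and 114 fell (19.6%), beside 28.3% and 25.8% of all genes tested, and of the lower genes 181 rose (32.8%) and 129 fell (23.4%). Whether these shares differ from those of all genes was not tested.

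Later courses of single members differed. RXRG means from day 0 to day 28 were 0, 0.684, 29.1, 1.38, 10.3, 76.1, 134 and 16.3 CPM, so those of days 10 and 14 were above that of day 3. STMN2 means were 0.586, 1.31, 73.7, 0.631, 0.109, 1.06, 0.518 and 13.3 CPM, and day 28 was above day 7 by 6.57 on the log2 scale (adjusted p = 4.38e-10). APLNR means were 0.813, 56.4, 1472, 678, 247, 79.3, 10.6 and 3.49 CPM, and APLNR fell by day 28 relative to day 7 (-6.14, adjusted p = 1.4e-10). Among the lower genes, TAGLN means were 45.1, 126, 15.3, 256, 266, 487, 75.9 and 918 CPM. Those of ASNS were 169, 365, 32.004, 161, 36.4, 106, 63.4 and 101 CPM, with low points at days 3 and 7.

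The 3 day 3 libraries were not alike in these genes. Of the 582 higher genes 262 were highest in replicate 1, 98 in replicate 2 and 222 in replicate 3 (45.0%, 16.8% and 38.1%), beside 41.3%, 30.4% and 28.3% of all genes tested. MESP1, MESP2, LHX1, TBX6, DLL1, DLL3 and WNT8A were highest in replicate 3, and RASGRP3, LGR5, CDH11, HAS2 and GREM1 in replicate 1. These genes were picked for this after their values were seen, and whether the libraries differ in stage, cell mixture or handling was not tested.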

How the data were processed

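Raw gene counts of 23 libraries were deposited by the authors as whole numbers in 1 table. The submitters' processing notes name Trim Galore 0.65, STAR 2.7.0, GRCh38, GENCODE v38 and HTSeq. Whether counting used strand is not given in the sources used here. CPM was computed here with TMM factors from the deposited counts.

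Of 57521 genes, 44 pseudoautosomal Y copies with 0 counts were left out. GENCODE v44 gave symbols and positions for 56387 identifiers, and 1090 had none. edgeR 4.0.16 (limma 3.58.1, R 4.3.3) fitted 1 robust quasi-likelihood model with day as factor to all 23 libraries, after filterByExpr with a minimum of 10 counts. Day 3 minus the mean of days 1 and 5, and each step, were tested with Benjamini-Hochberg adjustment over all genes. The SE is the size of the log2 difference divided by the square root of F. On simulated data (21439 genes), 2-fold changes were recovered in 47 of 100 genes by the contrast and in 12 by the rule of 3 tests. For 4-fold changes these numbers were 97 and 85, and 6 and 1 unchanged genes were called. In the simulation all other genes were set equal between days 1, 3 and 5, unlike in the data. Recovery in the data can therefore differ from these numbers, and the effect of depth was not tested.

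The genes described were the 15 higher and 15 lower protein-coding members with the largest smaller step (at least 20 CPM, no overlap between libraries), up to 5 non-coding genes each by the same rule, the lipins, MESP1, the 5 members most like LPIN1 and MESP1 in day means, and members of 38 gene lists (754 genes, 770 of 809 memberships tested). The rule, members and lists were chosen with earlier results of these data known, and further lists, named as such, after the values were seen. The 19 alternatives changed the scaling (RLE, upper quartile, totals only), the tool (DESeq2 1.42.0), the filter (none, or 30 counts), the libraries entered (the 9 of these days, or all but 1 of the 9 in turn) and the model (replicate number as a block, over all libraries and over the 9). The last, chosen after seeing the data, dropped the highest-total library of each of the 3 days together. Results for a few listed genes are not reported here.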

Additional observations from a re-analysis of the deposited data

How the results depend on the processing

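The numbers of members moved most with the libraries entered. Leaving out 1 library at a time gave 1313 to 4970 genes higher and 1053 to 3432 lower by the contrast, 453 to 2103 higher and 281 to 1080 lower than on both days, and 403 to 1134 and 218 to 360 with steps of at least 2-fold. Dropping the highest-total library of each day together, chosen after seeing the data, gave 3398 higher by the contrast, and 1202 and 1114 by the rule. The 9 libraries alone gave 1093 and 656 by the contrast, 342 and 169 by the rule, and 168 lower with 2-fold steps. With library totals alone 1570 were lower by the contrast and 351 by the rule, and without a filter 1514 and 343 (67.4% of contrast calls higher). The cause was not tested. DESeq2 gave 607 and 601 by the rule. Whether replicate numbers pair libraries is not given in the labels. Deviations of same-numbered libraries correlated at -0.464 to 0.651 and those of differently numbered libraries at -0.589 to 0.714, which does not decide it. With the number as a block the rule gave 573 and 514 genes (551 and 511 shared), and with the block and the 9 libraries alone 420 and 203, with 835 lower by the contrast and 201 with 2-fold steps. LPIN1 and MESP1 met the rule under all 19 alternatives, with contrasts of 1.46 to 1.91 and 4.42 to 5.34. For single genes the contrast stayed on the same side of the threshold in 2751 values, lost it in 24 and changed sign in 4, and the rule of 3 tests was lost 170 times by 38 of the 120 described members. The sign changes were in uncalled lipins: LPIN3 had 0.00841 with library totals alone, and LPIN3 ran from -0.30 to 0.12 (0.08 when day 3 replicate 1 was dropped) and LPIN2 from -0.0247 to 0.33 when 1 library was left out.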
